A study of Homo sapiens with 27 samples.

Results

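The late phase of differentiation without WNT inhibition was described from 8 of the 27 arrays in the series. The late arrays were those without the WNT inhibitor IWP-2 on days 6 and 8, and the early arrays were those without it on days 3 and 4, 4 arrays against 4. They were chosen by their labels alone. Each of 2 time courses gave 1 array to each day. In both, cells of HuES6, an established line of human embryonic stem cells, were replated on Matrigel in a serum-free defined medium. For the first 24 hours they received FGF2 (10 ng/ml), BMP4 (1 ng/ml) and, to activate WNT signalling, a CHIR compound (1 µM). Insulin was given on day 0 and left out from day 1. All 8 arrays shared this treatment and differed in day and time course. The inhibitor arms, used here for 1 comparison, had the same induction and then IWP-2, which was given on days 2 and 3 of the first time course and 1 day earlier in the other. The labels name HuES6 on the day 0 arrays, so the whole study stands for 1 cell line.

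WNT, BMP and FGF signals drive pluripotent cells through a primitive streak state into mesoderm, from which heart muscle, vessels, blood, mesothelium and connective tissue arise. Heart muscle formation in such cultures is known to need WNT signalling early and its inhibition afterwards. IWP-2 acts on Porcupine, which attaches the lipid that WNT proteins need to leave the cell. Without it, the culture was followed as a non-cardiac mesenchymal course, and gene lists for both words of that name were read. The lists were chosen with earlier results of these data known, so their shares describe the lists and are no test of the name. Of the fibroblast matrix genes 12 of 25 rose, where 13.2% of all genes rose, and of the cardiac contractile genes 1 of 31 rose. On each of the 8 arrays 18 to 23 matrix genes and 12 to 16 cardiac genes were detected. Members below detection on early and late arrays alike could hardly pass. Endothelial genes and genes of yolk sac, liver and endoderm rose as well, in 10 of 16 and 11 of 17. Of the mesenchymal transcription factors 2 of 20 rose, a share near that of all genes.

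Mean signals were 302.1 to 335.0 on the early and 308.2 to 336.3 on the late arrays. Between 16424 and 18707 probes were detected on early and between 18229 and 19784 on late arrays, so the late arrays reached higher counts and the ranges overlapped. The part of this in the results was not tested. Between the 2 time courses, same-day arrays had a correlation across the genes tested that ranged from 0.970 on day 8 to 0.982 on day 4. All levels below are log2 normalized intensities, on which the lowest detected probe of an array lay between 4.72 and 5.13 and the brightest at 14.17. A difference is the mean of the late arrays minus that of the early arrays, given with its standard error (SE), and a difference of 1 is a doubling. Whether each day was a culture of its own is not in the labels, so the array-to-array spread behind the p-values may be technical. The main fit took that spread from all arrays of the series, not from the 8 compared alone. The series includes the arms with IWP-2, which was given on different days in the 2 time courses. That difference in treatment could enter the SEs and p-values of the main fit, and its part was not tested. The arrays measured bulk RNA, in which fewer cells of a type and less RNA per cell cannot be told apart. Precision is limited by how few arrays there are.

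Of 13572 genes tested, 3477 (25.6%) passed a Benjamini-Hochberg adjusted p of 0.05 in limma. Of these, 1788 were higher on the late days (13.2% of all genes tested) and 1689 lower (12.4%). At least 2-fold changes made up 606 of the rises (4.47% of genes tested) and 403 of the falls (2.97%). All 3477 had the same sign in both time courses, which the selection favours because disagreement between the courses widens the SE. Among all genes 74.01% had the same sign, and the median difference over all genes was 0.0013. In 1392 genes (10.3%) all late arrays were above all early ones, and in 1355 (9.98%) all were below. Scaling each array to its median in place of quantile normalization moved that median to 0.146 and the share of higher calls from 51.4% to 77.1% of 3617, so the balance of rises and falls depends on the scaling.

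The 12 largest rises included genes of matrix proteins, membrane proteins, an enzyme and a transcriptional cofactor. Sarcolipin (SLN), a small regulator of the muscle calcium pump, read 4.46, 4.35, 9.80 and 11.18 on days 3, 4, 6 and 8 of time course 1 and 4.39, 4.84, 11.77 and 12.75 on those days of time course 2. It was detected on 1 of the 4 early arrays and on all 4 late arrays, and rose by 6.86 ± 0.64 (adjusted p = 1.62e-06), a size that is approximate because the early levels lay near background. Decorin (DCN), a small leucine-rich proteoglycan that binds collagen fibrils, read 4.37, 7.73, 12.97 and 13.24 on days 3, 4, 6 and 8 of time course 1 and 5.28, 9.67, 13.27 and 13.98 on those days of time course 2. Every late array lay above every early one, and the rise was 6.60 ± 0.67 (adjusted p = 4.2e-06). Periostin (POSTN), a matricellular protein of remodelling connective tissue, read 4.31, 4.99, 9.23 and 10.52 over the 4 days of time course 1 and 4.34, 6.14, 9.44 and 11.37 over those of time course 2, again without overlap, and rose by 5.20 ± 0.32 (adjusted p = 2.3e-08). The insulin-like growth factor carrier IGFBP3 rose by 5.08 ± 0.37, most of it already between days 3 and 4, where it went from 4.30 to 10.23 in time course 1 and from 5.04 to 9.72 in time course 2. The fibrillar collagen COL3A1 rose by 5.05 ± 1.13. Between days 3 and 4 it went from 4.28 to 11.57 in time course 1 and from 7.28 to 12.52 in time course 2. Its late arrays were at 13.67 to 14.17, near the top of the scale, so the late levels could be compressed. The transcriptional cofactor LMCD1 rose by 4.50 ± 0.41, and the GPI-anchored LY6H by 4.81 ± 0.43. LRRN3 rose by 5.31 ± 0.56, KANK4 by 4.85 ± 0.36 and AKR1B15, an aldo-keto reductase with close paralogs, by 4.26 ± 0.44. The remaining members of the 12 largest, CD34 and AFP, are described with their groups.

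The largest falls held genes of the streak state, of pluripotency and of secreted peptides. The cystatin CST1, which has near-identical relatives, fell by 4.75 ± 0.44, and the neuropeptide gene NTS (neurotensin) fell by 4.59 ± 0.50. CFC1, which encodes a co-receptor for NODAL and has a near-identical copy, read 11.78, 10.60, 6.19 and 7.38 on days 3, 4, 6 and 8 of time course 1 and 11.32, 9.53, 7.08 and 5.19 on those days of time course 2 and fell by 4.34 ± 0.48 (adjusted p = 8.71e-06). All its early arrays were above all its late arrays. ZIC2, a zinc finger factor of pluripotent and neural cells, fell by 4.10 ± 0.25. The pepsinogen genes PGA5 and PGA3, whose sequences are near identical and whose probes may not separate them, fell as well (-4.26 ± 0.55 and -3.82 ± 0.48). ALPL, the alkaline phosphatase that marks undifferentiated cells, fell by 3.51 ± 0.35, and the heparan sulfate sulfotransferase HS3ST3A1 fell by 3.59 ± 0.24. A further 3 genes went below detection on all 4 late arrays, so that their folds are lower bounds, set from the early mean and the lowest detected signal on each late array. The sodium-calcium exchanger SLC8A3 was at least 8.97-fold lower (means 7.96 and 4.32, adjusted p = 4.89e-09). WNT3A, a ligand of the streak, was at least 7.67-fold lower (means 7.73 and 4.29, adjusted p = 2.33e-07). The neuropeptide galanin (GAL) was at least 7.33-fold lower (means 7.67 and 4.27, adjusted p = 2.16e-07).

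**Figure D1:**
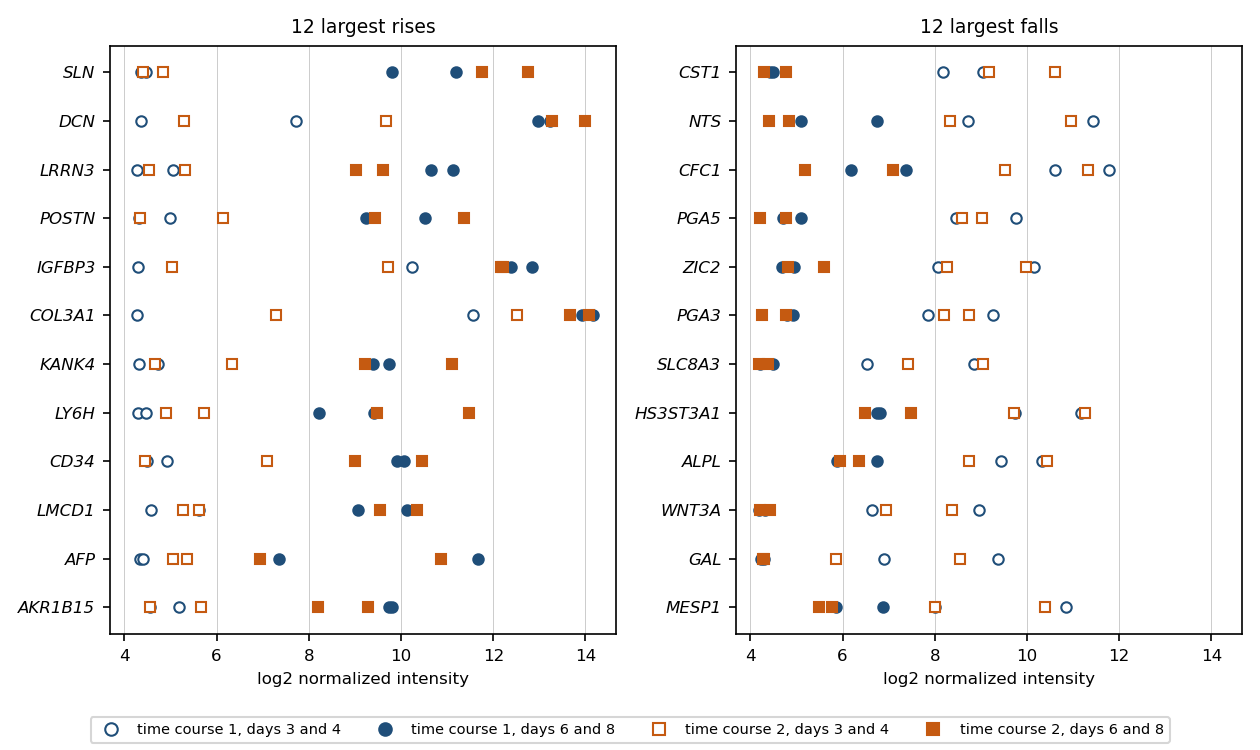
Log2 normalized intensity (x axis) of the 12 genes with the largest rises (left) and the 12 with the largest falls (right), 1 point per array. Open symbols are days 3 and 4, filled symbols days 6 and 8, circles time course 1 and squares time course 2. In each of the 24 genes the early and late points do not overlap, and AFP spreads from 6.94 on day 6 to 11.67 on day 8.

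Many genes of fibroblasts and mesenchymal matrix rose. Of 25 tested, 12 rose and 2 fell (13.2% and 12.4% of all genes), with a median difference of 0.82 against 0.0013 over all genes. Their summed linear signal was 26060 to 52800 on the early arrays and 81390 to 103800 on the late arrays, so the ranges did not meet. Lumican (LUM), another leucine-rich proteoglycan, read 4.34, 11.43, 12.93 and 12.75 over the 4 days of time course 1 and 8.07, 12.40, 13.26 and 13.60 over those of time course 2. Day 3 stood far below the other days, and the difference was 4.07 ± 0.79 (adjusted p = 0.00125). COL1A1, the major chain of type I collagen, read 8.02, 11.02, 13.04 and 12.98 on days 3, 4, 6 and 8 of time course 1 and 9.56, 11.64, 12.31 and 12.61 on those days of time course 2 and rose by 2.67 ± 0.58 (adjusted p = 0.00276). Its late arrays were above its early arrays. COL1A2, COL5A1, COL6A2, COL6A3, TGFBI, SPARC and FBLN5 also rose. THY1 and elastin (ELN) fell, and vimentin and PDGFRB were among the 11 that did not pass.

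Collagen chains, several of them also on the matrix list, rose more often than they fell. Of 29 tested, 11 rose and 2 fell, the median difference being 0.43. The fibril-associated COL21A1 read 4.49, 4.35, 8.07 and 8.05 over the 4 days of time course 1 and 4.60, 4.58, 7.47 and 9.37 over those of time course 2. It was detected on no early array and on every late array, and was at least 9.77-fold higher (means 4.51 and 8.24, adjusted p = 1.13e-07). The chains that fell were COL9A1 and COL9A2, both of type IX collagen of cartilage, and COL9A2 fell by 3.22 ± 0.46 (adjusted p = 0.000102), although COL9A3 rose. Among 14 collagen-processing enzymes 3 rose (1 to 4 without 1 array), where 13.2% of all genes rose. The lysyl oxidase relative LOXL4 rose by 1.66 ± 0.29, LOXL1 by 0.93 ± 0.25 and the lysyl hydroxylase PLOD3 by 0.51 ± 0.15. PCOLCE2, an enhancer of procollagen cleavage, fell by 1.66 ± 0.20.

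Matrix proteases and their inhibitors followed, with 7 of 18 higher and 1 lower. Tissue plasminogen activator (PLAT) read 4.34, 10.26, 11.52 and 11.58 on days 3, 4, 6 and 8 of time course 1 and 4.50, 10.73, 11.02 and 10.30 on those days of time course 2. The step came between days 3 and 4 in both time courses, and the difference was 3.65 ± 0.68 (adjusted p = 0.000977). ADAMTS9, a proteoglycan-cleaving protease, rose by 2.15 ± 0.40 and the membrane-bound MMP16 by 1.94 ± 0.38. SERPINE2, an inhibitor of serine proteases, fell by 1.94 ± 0.23 (adjusted p = 1.6e-05). Of 19 genes of caveolae, annexins and S100 proteins, 8 rose and 1 fell, the median difference being 0.64. Annexin A1 (ANXA1) rose by 4.25 ± 0.42, the caveolar coat gene CAVIN1 by 3.26 ± 0.34, galectin 3 (LGALS3) by 2.24 ± 0.23 and CAV1 by 1.95 ± 0.24, where another probe of CAV1 gave 0.17 and did not pass.

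Smooth muscle genes rose in part. Of 15 tested, 4 rose and 0 fell, where 13.2% of all genes rose and 12.4% fell, the median difference being 0.13. Smooth muscle actin (ACTA2) read 6.74, 9.13, 11.25 and 11.03 over the 4 days of time course 1 and 8.09, 11.36, 12.27 and 11.79 over those of time course 2. It rose by 2.76 ± 0.32 (adjusted p = 1.48e-05), with the day 4 array of time course 2 above both late arrays of time course 1. Tropomyosin 1 (TPM1) rose by 1.42 ± 0.16, smoothelin (SMTN) by 1.12 ± 0.13 and caldesmon (CALD1) by 1.20 ± 0.30. TAGLN differed by 0.14 ± 0.29 (adjusted p = 0.773), and its early and late arrays overlapped. MYH11, CNN1 and MYOCD were among the 11 that did not pass.

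Of 20 transcription factors of mesenchyme and lateral plate tested, 2 rose and 4 fell, where 13.2% of all genes rose and 12.4% fell, the median difference being -0.12. PITX1, a hindlimb and lateral plate homeobox factor, read 5.83, 9.66, 12.41 and 12.57 on days 3, 4, 6 and 8 of time course 1 and 6.94, 12.02, 12.68 and 13.01 on those days of time course 2. It rose by 4.06 ± 0.62 (adjusted p = 0.000195), with most of the step between days 3 and 4. PRRX1, a factor of limb and craniofacial mesenchyme, read 7.27, 11.10, 9.66 and 8.24 over the 4 days of time course 1 and 10.52, 11.81, 10.48 and 9.60 over those of time course 2. Its highest array was day 4 in each time course, the groups overlapped, and the difference of -0.68 ± 0.43 did not pass (adjusted p = 0.271). A second probe of PRRX1 gave -1.51, which passed, and the mean of both probes gave -1.09 (adjusted p = 0.00868). HAND1, a lateral plate and extraembryonic factor, lay between 13.83 and 13.93 on all 8 arrays, near the top of the scale, so a change there could be compressed (difference -0.02 ± 0.22, adjusted p = 0.97). The posterior caudal-type factors CDX1 (-3.30 ± 0.19) and CDX2 (-2.58 ± 0.33) fell, and the homeobox factor MEIS1 fell by 1.14 ± 0.18. CDH11, an adhesion molecule of mesenchyme, fell by 1.74 ± 0.30 (adjusted p = 0.00055) on the list of cadherins and epithelial genes, where 1 of 16 rose (CDH3, 0.98 ± 0.25) and 4 fell. CLDN10 fell by 2.16 ± 0.39 and the stem cell claudin CLDN6 fell by 0.92 ± 0.14.

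**Figure D2:**
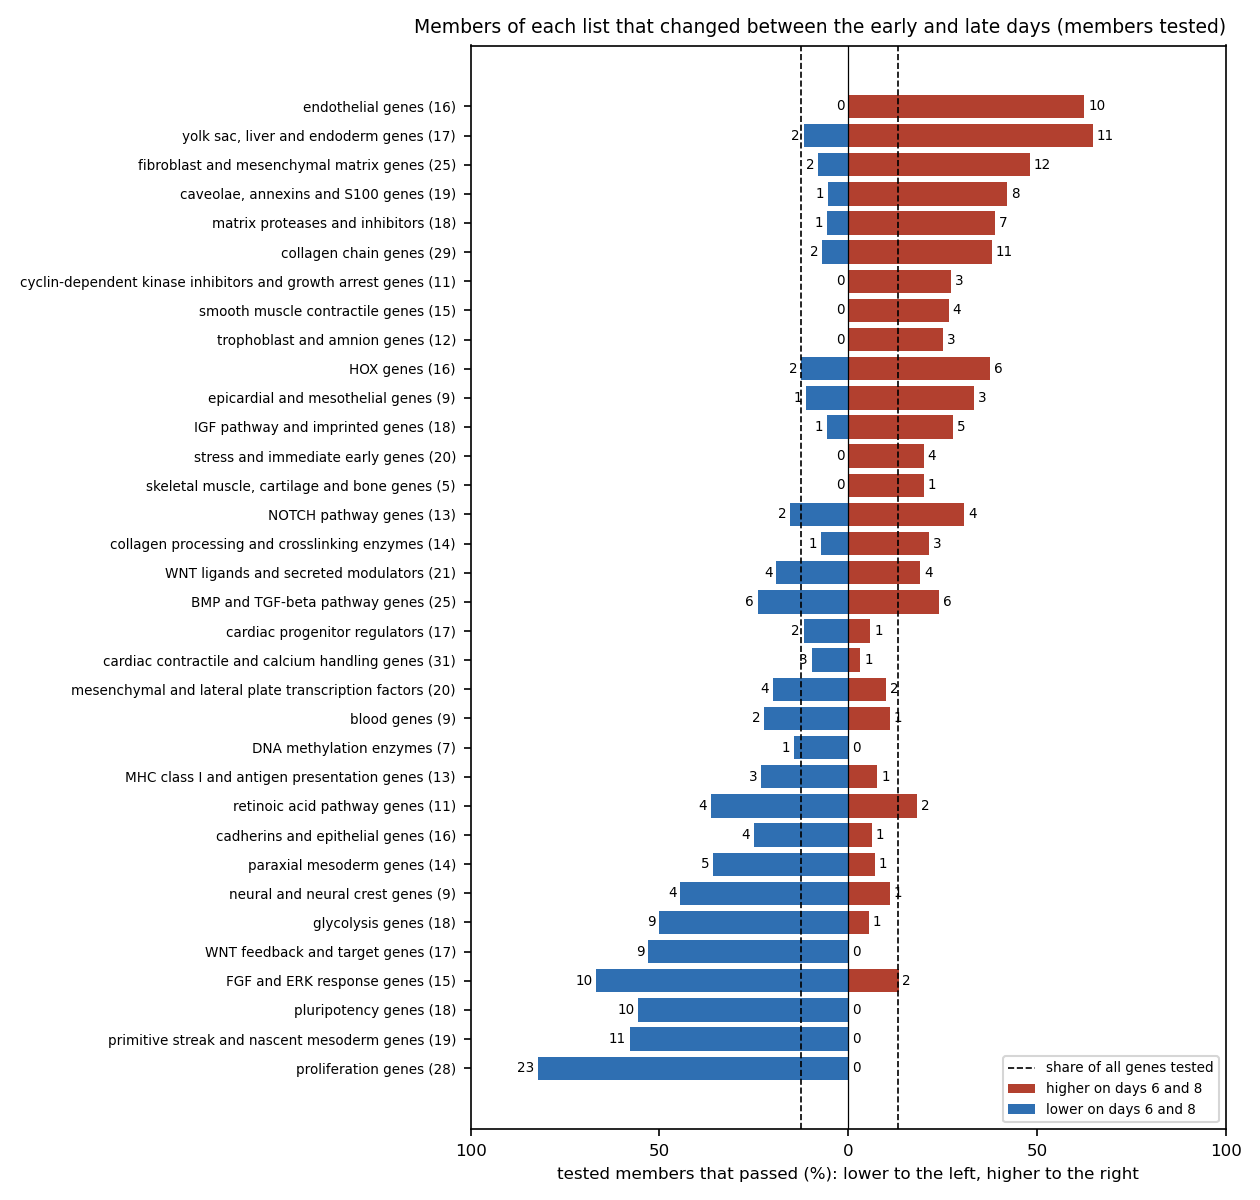
Share of tested members (x axis, percent) of each of 34 gene lists that were higher (right) or lower (left) on days 6 and 8 at an adjusted p of 0.05, with the number of members beside each bar and the number tested in brackets. Dashed lines mark the shares over all genes, 13.2% higher and 12.4% lower. Endothelial genes (10 of 16), yolk sac, liver and endoderm genes (11 of 17) and fibroblast matrix genes (12 of 25) lead on the right, and proliferation genes (23 of 28) on the left.

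Endothelial genes rose with the matrix genes. Of 16 tested, 10 rose and 0 fell, the median difference being 1.94. Between 5 and 9 genes of the list were detected on each early array and 14 to 16 on each late array. Their summed signal was 651.1 to 1433 early and 2582 to 4300 late. VE-cadherin (CDH5), the junction protein of endothelium, read 4.26, 4.62, 8.77 and 8.59 on days 3, 4, 6 and 8 of time course 1 and 4.29, 5.47, 8.86 and 7.55 on those days of time course 2. It was low on all early arrays and rose by 3.78 ± 0.39 (adjusted p = 4.59e-06). CD34, a sialomucin of blood and vessel progenitors, read 4.48, 4.93, 10.05 and 9.91 over the 4 days of time course 1 and 4.45, 7.09, 10.45 and 9.00 over those of time course 2 and rose by 4.62 ± 0.62 (adjusted p = 5.5e-05). Its groups did not overlap. Of its other probes, 1 rose by 4.63 and 1 gave -0.02. PECAM1 read 4.31, 4.32, 6.31 and 6.76 on days 3, 4, 6 and 8 of time course 1 and 4.45, 4.60, 6.75 and 6.33 on those days of time course 2, was detected on 0 early and 4 late arrays and was at least 3-fold higher (means 4.42 and 6.54, adjusted p = 0.000558). The adhesion gene ESAM was at least 6.55-fold and the claudin gene CLDN5 at least 2.74-fold higher. KDR, the VEGF receptor found on early mesoderm as well as endothelium, was detected on all 8 arrays and differed by 0.17 ± 0.26 (adjusted p = 0.681). Of 9 blood genes tested, 1 rose and 2 fell, where 13.2% of all genes rose and 12.4% fell. LMO2, a cofactor shared by blood and endothelium, rose by 2.56 ± 0.43. The globin genes HBE1, HBG1 and HBG2 did not pass. KLF1 (-0.52 ± 0.17) and ALAS2 (-0.49 ± 0.16) of the red cell lineage fell, and no late array detected either. The calls for KLF1 and ALAS2 were lost without 6 and 7 of the 8 arrays in turn, each left out singly.

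Of 9 epicardial and mesothelial genes, 3 rose and 1 fell, where 13.2% of all genes rose and 12.4% fell. The median difference was 0.38. Basonuclin 1 (BNC1), a zinc finger factor of mesothelium, read 5.14, 6.48, 8.41 and 8.92 over the 4 days of time course 1 and 6.14, 7.43, 8.65 and 9.80 over those of time course 2. It rose by 2.65 ± 0.34 (adjusted p = 4.4e-05), and the late arrays were all higher. WT1, the factor of epicardium and kidney mesenchyme, read 4.97, 5.53, 7.51 and 8.07 on days 3, 4, 6 and 8 of time course 1 and 4.24, 5.10, 6.41 and 6.63 on those days of time course 2 and rose by 2.20 ± 0.44 (adjusted p = 0.00156). Mesothelin (MSLN) rose by 0.60 ± 0.12 at levels close to background. ALDH1A2, the retinoic acid synthesis enzyme of mesoderm and epicardium, fell by 2.68 ± 0.42 (adjusted p = 0.000251). TCF21 (difference -0.11 ± 0.34), TBX18 (0.81 ± 0.57), UPK3B (0.38 ± 0.14), LRRN4 (0.03 ± 0.26) and KRT19 (-0.14 ± 0.28) did not pass. TBX18 read 7.00 on day 8 of time course 1 and at most 4.99 on the other 7 arrays.

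Genes of yolk sac, liver and endoderm rose, and 7 of them rose again between days 6 and 8. Of 17 tested, 11 rose and 2 fell, the median difference being 1.34. Their summed signal was 1164 to 1351 on the early arrays and 1398 to 11300 on the late arrays, with the 2 ends of the late range far apart. Alpha-fetoprotein (AFP), the fetal plasma protein of yolk sac and liver, read 4.33, 4.39, 7.36 and 11.67 over the 4 days of time course 1 and 5.06, 5.36, 6.94 and 10.86 over those of time course 2. Both day 8 arrays were high and both day 6 arrays intermediate, and the late minus early difference was 4.42 ± 0.30 (adjusted p = 8.6e-08). Fibrinogen beta (FGB), a clotting protein secreted by hepatocytes, read 4.26, 4.33, 6.51 and 10.05 on days 3, 4, 6 and 8 of time course 1 and 4.47, 4.28, 6.49 and 7.96 on those days of time course 2. It was detected on no early array and was at least 6.94-fold higher on the late days (means 4.34 and 7.75, adjusted p = 2.34e-07). Its partners FGA and FGG, which lie beside it on chromosome 4, rose too: FGA by 3.02 ± 0.17, and FGG to at least 3.67-fold (means 4.31 and 6.83, adjusted p = 3.42e-09). Transthyretin (TTR), a carrier of thyroid hormone and retinol, was at least 5.22-fold higher (means 4.30 and 7.34, adjusted p = 3.49e-05). APOA1, APOA4, APOB, SERPINA1, AHSG and RBP4 rose as well. Albumin (ALB) did not pass (difference -0.10 ± 0.27, adjusted p = 0.834), and neither did APOA2 (1.34 ± 0.56), SOX17 (-0.10 ± 0.55) and FOXA1 (0.70 ± 0.41). The endoderm factors FOXA2 and FOXA3 fell. A fit on the 8 arrays alone, in place of all 27, gave 6 rises. Here and below, that fit used an early and a late mean in place of a mean for each day. Steps between days 3 and 4 or days 6 and 8 therefore widened its spread.

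Between days 6 and 8, 21 genes (0.155% of those tested) passed, all of them higher on day 8, and 7 were on this list: AFP, AHSG, APOA4, FGA, FGB, FGG and SERPINA1. AFP rose by 4.12 ± 0.43 from day 6 to day 8 (adjusted p = 0.000123), FGG by 3.19 ± 0.18 (adjusted p = 4.29e-08) and FGB by 2.50 ± 0.37 (adjusted p = 0.0047). SERPINE3, a serpin that is on none of the lists, read 4.82, 4.54, 6.31 and 8.81 over the 4 days of time course 1 and 4.26, 4.27, 5.25 and 9.77 over those of time course 2 and rose by 3.51 ± 0.31 over the same days (adjusted p = 1.27e-05). The other 13 were HS6ST2, SH3GL2, TMEM151A, KRT24, MEP1A, GABRG3, FMO1, COL15A1, MACROD2, SCN3B, CAMK2N1, NHERF4 and ZFHX4-AS1. Leaving out day 8 of time course 1 gave a count of 79, and leaving out day 6 of time course 2 gave 13.

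The promoters of AFP, FGA and FGB are shown because they are the called members of the list whose windows hold GTTAAT, the half-site of the liver factor HNF1, on either strand. Each window of 300 bases spans the gene's start (RefSeq, GRCh38.p14), is written 5′ to 3′ on the gene's strand, and has the letters GTTAAT or their reverse complement ATTAAC in capitals. The positions are chr4:73435971-73436270 (plus strand), chr4:154590693-154590992 (minus strand) and chr4:154562730-154563029 (plus strand).
AFP: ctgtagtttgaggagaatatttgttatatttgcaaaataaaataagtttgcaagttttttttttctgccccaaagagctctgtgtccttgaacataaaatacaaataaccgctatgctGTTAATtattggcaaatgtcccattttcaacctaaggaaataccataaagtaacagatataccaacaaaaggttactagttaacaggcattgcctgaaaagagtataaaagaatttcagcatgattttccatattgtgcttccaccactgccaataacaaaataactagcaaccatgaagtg
FGA: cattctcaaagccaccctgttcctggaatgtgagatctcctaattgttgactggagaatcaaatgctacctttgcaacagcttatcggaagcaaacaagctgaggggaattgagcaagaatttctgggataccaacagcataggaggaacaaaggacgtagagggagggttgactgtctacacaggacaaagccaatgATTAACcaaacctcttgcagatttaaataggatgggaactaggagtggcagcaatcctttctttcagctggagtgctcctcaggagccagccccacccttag
FGB: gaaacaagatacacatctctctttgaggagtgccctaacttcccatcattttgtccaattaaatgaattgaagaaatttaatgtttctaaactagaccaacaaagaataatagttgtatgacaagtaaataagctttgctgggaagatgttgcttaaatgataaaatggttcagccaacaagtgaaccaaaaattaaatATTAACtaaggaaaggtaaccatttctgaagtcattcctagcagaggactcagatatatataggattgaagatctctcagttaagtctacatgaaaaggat
Counted from the gene's start, the half-site begins at -132 in AFP, -52 in FGA and -51 in FGB. Of 27305 RefSeq promoter windows, 6.89% hold it. Of the 15 list members with a window, 4 hold it (ALB is the other), and of 8 called members 3 do.

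**Figure D3:**
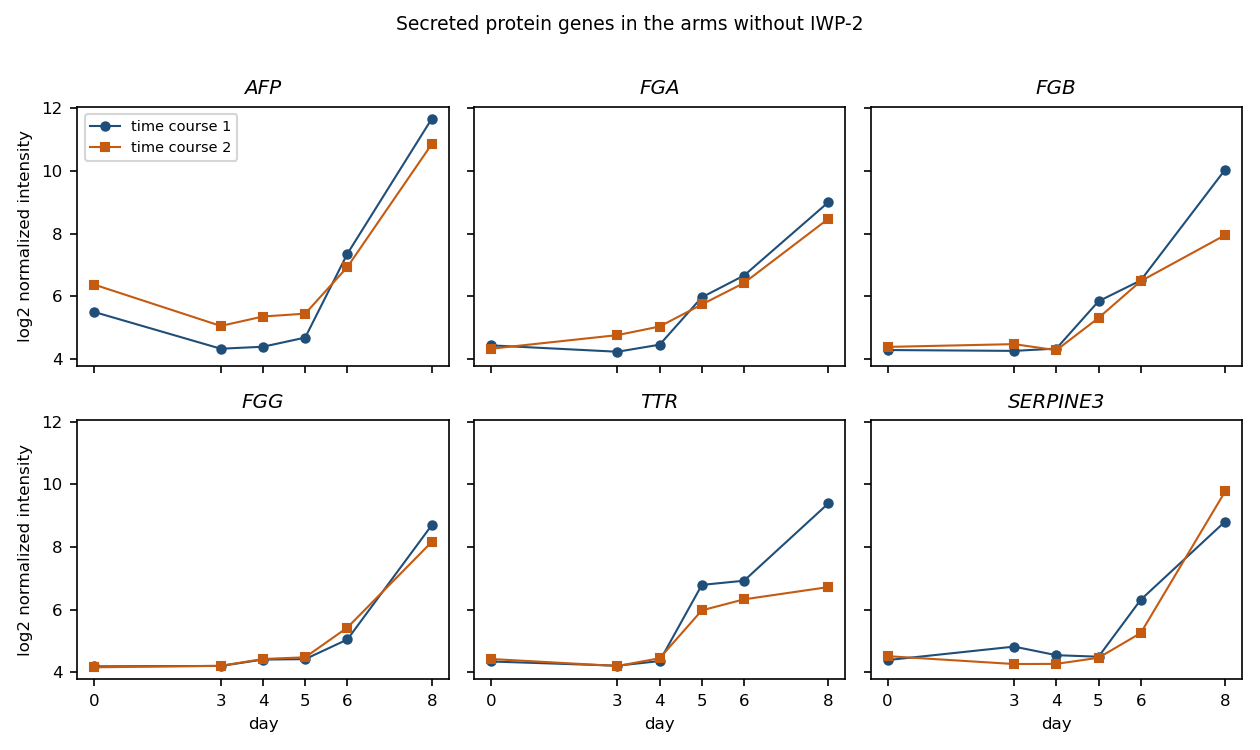
Log2 normalized intensity (y axis) of AFP, FGA, FGB, FGG, TTR and SERPINE3 by day (x axis) in the arms without IWP-2, circles for time course 1 and squares for time course 2, 1 array per point. All 6 are near background on days 3 and 4 in time course 1, and AFP reaches 11.67 and 10.86 on day 8.

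Genes of the streak state fell. Of 19 genes of primitive streak and nascent mesoderm tested, 0 rose and 11 fell, the median difference being -0.95. Brachyury (TBXT), the T-box factor that defines the streak, read 8.73, 5.73, 4.25 and 4.33 on days 3, 4, 6 and 8 of time course 1 and 8.13, 5.72, 4.22 and 4.21 on those days of time course 2. It dropped between days 3 and 4, was detected on no late array and was at least 4.87-fold lower (means 7.08 and 4.25, adjusted p = 6.17e-07). EOMES, its relative in mesendoderm, was at least 3.14-fold lower (means 6.45 and 4.33, adjusted p = 0.00014). MESP1, the bHLH factor of nascent cardiac mesoderm, read 10.85, 8.00, 6.87 and 5.86 over the 4 days of time course 1 and 10.40, 8.00, 5.76 and 5.49 over those of time course 2 and fell by 3.31 ± 0.32 (adjusted p = 2.57e-06). All early arrays were above all late ones. The apelin receptor APLNR, on early mesoderm, fell by 2.45 ± 0.44. Of 14 paraxial mesoderm genes 5 fell (3 on the 8 arrays alone), among them the NOTCH ligands DLL3 (-2.59 ± 0.33) and DLL1 (-1.76 ± 0.34) and the presomitic factor MSGN1 (-1.44 ± 0.23). MEOX1, a homeobox factor of somites, went the other way and was at least 3.16-fold higher (means 4.39 and 6.61, adjusted p = 1.1e-07).

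Of 18 pluripotency genes 10 fell and 0 rose, the median difference being -0.56. POU5F1, the core factor OCT4, read 8.79, 7.58, 5.11 and 4.61 on days 3, 4, 6 and 8 of time course 1 and 8.78, 7.46, 5.40 and 4.81 on those days of time course 2 after 11.43 and 11.42 on day 0. It fell by 3.17 ± 0.16 (adjusted p = 3.42e-09), while a second probe gave -0.20 and did not pass. NANOG and SOX2 were near background on the early days already and did not pass (differences -0.36 ± 0.16 and -0.06 ± 0.51). DNMT3B, the de novo DNA methyltransferase of stem cells, fell by 1.53 ± 0.16. It was the 1 of 7 DNA methylation enzymes that passed, where 25.6% of all genes passed.

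WNT target genes fell in these arms without inhibitor. Of 17 feedback and target genes, 0 rose and 9 fell, the median difference being -0.90. SP5, a zinc finger factor induced by WNT, read 8.54, 6.56, 4.89 and 4.85 over the 4 days of time course 1 and 7.72, 6.58, 5.19 and 4.92 over those of time course 2 and fell by 2.39 ± 0.26 (adjusted p = 7.13e-06). The WNT antagonist NKD1 read 7.60, 6.80, 5.14 and 5.12 on days 3, 4, 6 and 8 of time course 1 and 8.17, 7.60, 5.76 and 6.06 on those days of time course 2 and fell by 2.02 ± 0.28 (adjusted p = 8.2e-05). In both genes every late array was below every early array. AXIN2, the scaffold of the beta-catenin destruction complex, read 9.88, 9.13, 8.38 and 8.61 over the 4 days of time course 1 and 10.08, 9.76, 9.26 and 9.00 over those of time course 2. Its early and late arrays overlapped, and it fell by 0.90 ± 0.30 (adjusted p = 0.0385) and lost its call without any of 7 of the 8 arrays. The secreted antagonist DKK1 fell by 1.93 ± 0.51 and SP8 fell by 1.53 ± 0.19. Among 21 ligands and secreted modulators 4 rose and 4 fell, where 13.2% of all genes rose and 12.4% fell. Their median difference was -0.06 and, under median scaling, 0.002. FRZB, a decoy receptor for WNT, read 7.76, 8.12, 11.84 and 11.78 on days 3, 4, 6 and 8 of time course 1 and 7.89, 8.81, 11.86 and 13.16 on those days of time course 2. It was higher on all late arrays, by 4.01 ± 0.35 (adjusted p = 7.28e-07). The R-spondins, which strengthen WNT signalling at the receptor, rose: RSPO1 was at least 6.78-fold higher (means 4.39 and 7.71, adjusted p = 1.07e-05) and RSPO2 rose by 2.53 ± 0.49. WNT3A, WNT8A, WNT5B and SFRP2 were the falls, and on the 8 arrays alone 2 members fell.

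The SP5 promoter is shown because it was the only one of 9 windows among the WNT target genes to hold CTTTGAT, the TCF/LEF motif, on either strand. The window is chr2:170715087-170715386 (plus strand, RefSeq, GRCh38.p14), with the motif in capitals at -109, and 2.64% of all windows hold it.
SP5: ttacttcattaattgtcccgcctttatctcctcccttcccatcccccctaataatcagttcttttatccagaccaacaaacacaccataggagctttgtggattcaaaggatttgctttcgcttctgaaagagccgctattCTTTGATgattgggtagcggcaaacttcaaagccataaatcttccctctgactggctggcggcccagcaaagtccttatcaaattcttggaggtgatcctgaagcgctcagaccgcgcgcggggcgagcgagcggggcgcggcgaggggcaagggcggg

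FGF and ERK response genes fell with the WNT targets. Of 15 tested, 10 fell and 2 rose, with a median of -0.94. DUSP6, the phosphatase that switches off ERK, read 9.01, 9.50, 5.77 and 7.03 over the 4 days of time course 1 and 8.46, 8.82, 6.62 and 5.63 over those of time course 2. The late arrays were all lower, and it fell by 2.69 ± 0.43 (adjusted p = 0.00025). ETV5, an ETS factor induced by FGF, fell by 1.84 ± 0.40 (1 other probe gave -0.18 and did not pass), and the ERK antagonists SPRY1 (-1.82 ± 0.24) and SPRY2 (-1.81 ± 0.27) fell. The receptors FGFR2 and FGFR3 were the rises. DUSP4, FGFR1 and IL17RD did not pass (differences -0.14 ± 0.16, -0.22 ± 0.19 and 0.22 ± 0.28).

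Retinoic acid genes fell in 4 of 11 and rose in 2, where 12.4% of all genes fell and 13.2% rose. Their median was -0.44. CRABP2, which carries retinoic acid to its nuclear receptors, read 12.57, 10.83, 7.55 and 9.63 on days 3, 4, 6 and 8 of time course 1 and 12.16, 10.74, 8.89 and 7.65 on those days of time course 2 and fell by 3.14 ± 0.37 (adjusted p = 1.77e-05). All early arrays were above all late ones. The receptor RARB fell by 2.07 ± 0.19 and the retinol dehydrogenase RDH10 fell by 1.50 ± 0.26, beside ALDH1A2 above. CYP26A1, which degrades retinoic acid, gave -1.88 ± 0.80 (adjusted p = 0.1) and stood at 9.07 on day 6 of time course 2 against 5.34 in time course 1. ALDH1A3 (0.18 ± 0.23), CYP26B1 (-0.43 ± 0.16), RARA (0.31 ± 0.17) and STRA6 (0.31 ± 0.32) did not pass.

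**Figure D4:**
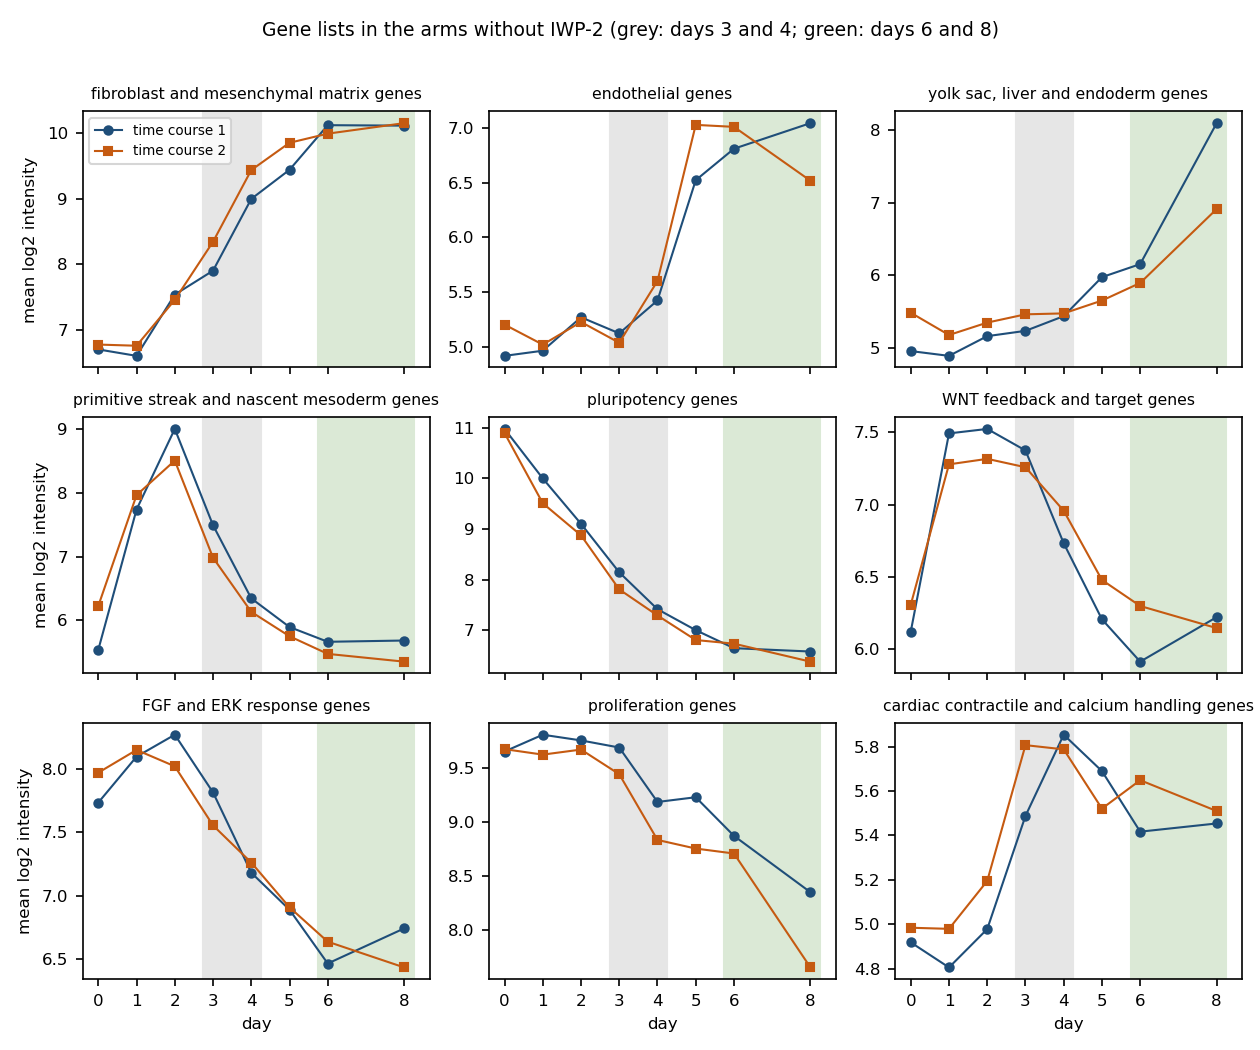
Mean log2 normalized intensity over the tested members of 9 lists (y axes, scaled per panel) by day (x axis) in the arms without IWP-2, circles for time course 1 and squares for time course 2. Grey marks days 3 and 4 and green days 6 and 8. The streak mean peaks at 9.01 and 8.51 on day 2 and ends at 5.68 and 5.35 on day 8, the yolk sac, liver and endoderm mean reaches 8.10 and 6.92 on day 8, and the cardiac panel spans only 4.81 to 5.85.

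Proliferation genes had the highest share of falls among the 34 lists. Of 28 tested, 23 fell and 0 rose, with a median of -0.91, and under median scaling the count was 16 with a median of -0.70. Leaving out 1 array gave 13 to 22, and the 8 arrays alone gave 11. The summed signal was 21920 to 39720 on the early and 9878 to 22720 on the late arrays, so the 2 ranges overlapped slightly. BUB1, a kinase of the spindle checkpoint, read 9.74, 9.37, 8.58 and 7.51 over the 4 days of time course 1 and 9.60, 8.60, 8.12 and 6.87 over those of time course 2. Its highest late array was below its lowest early array, and it fell by 1.56 ± 0.21 (adjusted p = 4.76e-05). The mitotic cyclin CCNB2 read 11.10, 10.86, 10.22 and 9.47 on days 3, 4, 6 and 8 of time course 1 and 11.27, 10.67, 10.19 and 8.99 on those days of time course 2 and fell by 1.26 ± 0.33 (adjusted p = 0.0101), also without overlap. AURKB, a mitotic kinase, fell by 1.32 ± 0.38, a call lost without any of 4 arrays, and FOXM1, a factor of mitotic gene expression, fell by 1.23 ± 0.23. MKI67, the usual proliferation marker, fell by 0.51 ± 0.15 near background and lost its call without any of 4 arrays. TOP2A (-0.88 ± 0.38, adjusted p = 0.103), CDK1 (-0.80 ± 0.36), TYMS (-0.79 ± 0.29), RRM2 (-0.56 ± 0.35) and CCNE1 (0.20 ± 0.27) did not pass. Of 11 cell cycle inhibitors and growth arrest genes 3 rose (5 under median scaling) and 0 fell. For scale, 13.2% of all genes rose and 12.4% fell. CDKN1C, the imprinted inhibitor p57, read 8.12, 8.55, 10.89 and 11.10 over the 4 days of time course 1 and 8.24, 8.93, 9.89 and 11.23 over those of time course 2 and rose by 2.32 ± 0.28 (adjusted p = 2.28e-05). GAS6 rose by 1.32 ± 0.19 and CDKN1A, the inhibitor p21, by 1.15 ± 0.36, whose call was lost without any of 5 arrays.

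The promoters of CCNB2, CDC20 and PLK1 are shown because these called cell cycle genes carry TTTGAA, the cell cycle homology region, in their windows. The letters TTTGAA or the reverse complement TTCAAA are in capitals, and the windows are chr15:59104896-59105195, chr1:43358731-43359030 and chr16:23678639-23678938 (all plus strand, RefSeq, GRCh38.p14).
CCNB2: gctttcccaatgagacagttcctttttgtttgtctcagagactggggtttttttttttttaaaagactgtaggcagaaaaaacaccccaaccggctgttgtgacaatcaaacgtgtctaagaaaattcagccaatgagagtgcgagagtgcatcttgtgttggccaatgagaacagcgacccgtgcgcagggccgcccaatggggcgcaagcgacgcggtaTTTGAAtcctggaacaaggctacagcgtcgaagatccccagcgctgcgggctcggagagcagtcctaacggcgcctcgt
CDC20: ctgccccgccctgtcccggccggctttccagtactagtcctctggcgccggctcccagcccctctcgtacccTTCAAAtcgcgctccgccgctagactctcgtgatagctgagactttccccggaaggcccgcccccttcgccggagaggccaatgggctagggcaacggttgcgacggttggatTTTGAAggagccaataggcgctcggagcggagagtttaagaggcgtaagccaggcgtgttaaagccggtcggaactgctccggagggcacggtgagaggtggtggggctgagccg
PLK1: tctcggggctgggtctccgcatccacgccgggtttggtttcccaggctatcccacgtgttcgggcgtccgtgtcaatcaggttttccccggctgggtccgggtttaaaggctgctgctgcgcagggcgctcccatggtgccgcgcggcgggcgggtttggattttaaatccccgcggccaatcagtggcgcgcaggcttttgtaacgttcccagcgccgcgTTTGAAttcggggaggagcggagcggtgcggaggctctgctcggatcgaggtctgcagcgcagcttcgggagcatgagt
Of 22 list members with a window 8 hold the letters, and 6 of the 17 called ones, against 15.4% of all windows on either strand.

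Glycolysis genes fell in 9 of 18 and rose in 1, with a median of -0.51, and all 18 were detected on every array. The falls came to 3 on the 8 arrays alone, to 3 with the days of a stage averaged, and to between 5 and 9 without 1 array. Pyruvate kinase (PKM) read 10.42, 9.77, 9.42 and 9.03 on days 3, 4, 6 and 8 of time course 1 and 9.55, 9.10, 8.34 and 6.96 on those days of time course 2. It fell by 1.27 ± 0.21 (adjusted p = 0.000394), with the day 6 array of time course 1 above the day 4 array of time course 2. ALDOC fell by 1.23 ± 0.35, lactate dehydrogenase A (LDHA) fell by 0.80 ± 0.22 and GAPDH fell by 0.52 ± 0.13. The ALDOC call was lost without any of 4 arrays and the LDHA call without any of 3. SLC2A1, the basal glucose transporter, read 10.58, 9.07, 12.04 and 11.86 over the 4 days of time course 1 and 10.31, 10.83, 12.07 and 12.93 over those of time course 2 and rose by 2.03 ± 0.36 (adjusted p = 0.000662), with no overlap of late and early arrays. ACTB, often used as a reference gene, differed by -0.03 ± 0.15 (adjusted p = 0.904).

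Few cardiac contractile and calcium handling genes changed. Of 31 tested, 1 rose and 3 fell (6 on the 8 arrays alone), where 13.2% of all genes rose and 12.4% fell. The median difference was -0.01. The list's summed signal was 3139 to 8650 on the early and 4949 to 6948 on the late arrays, and 12 to 16 members were detected per array. Atrial myosin heavy chain (MYH6) read 5.85, 6.29, 4.40 and 4.64 on days 3, 4, 6 and 8 of time course 1 and 7.69, 6.98, 4.89 and 4.46 on those days of time course 2. It was detected on all early arrays and 1 late array, and fell by 2.10 ± 0.56 (adjusted p = 0.0111). Muscle creatine kinase (CKM) was detected on no late array and was at least 3.63-fold lower (means 6.65 and 4.26, adjusted p = 0.00942). The Z-disc gene NEBL fell by 1.72 ± 0.24. TNNI1, the slow skeletal troponin I of fetal heart, rose by 0.42 ± 0.15 but was detected on 1 late array only and lost its call without any of 7 arrays. Cardiac actin (ACTC1), named after its values were seen as the brightest gene of the list, ran from 7.89 to 11.92 and differed by 0.34 ± 0.37 (adjusted p = 0.548). Of 17 cardiac progenitor regulators, 1 rose and 2 fell, shares no higher than those of all genes. GATA5 rose by 1.07 ± 0.20, and ISL1 (-2.49 ± 0.58) and TBX3 (-2.02 ± 0.26) fell. NKX2-5, the homeobox factor of the heart field, was detected on none of the 8 arrays.

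The course with IWP-2 was compared over the same days by the difference of the late minus early changes, without minus with inhibitor. This difference passed for 2477 genes (18.3% of those tested), 1244 of them positive (9.17%) and 1233 negative (9.08%). Under median scaling it passed for 3842, of which 81.9% were positive and around a median of 0.31, so its balance also depends on the scaling. One inhibitor array, day 8 of time course 2, was dim with a mean signal of 225.2, and 1976 genes passed without it. The inhibitor was given on different days in the 2 courses, and their arms were pooled. The labels place 2 of the inhibitor arrays in a second series as well.

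Cardiac contractile genes differed in nearly all members. In 29 of 31 the change was lower without than with IWP-2, and in 25 when the dim array was left out. With IWP-2, 30 of 31 rose, where 36.2% of all genes passed (17.6% higher and 18.7% lower), with a median over the list of 3.20. Genes were tested if 2 or more of all 27 arrays detected them, and 12 to 16 members were detected on each of the 8 arrays without inhibitor. Members silent there could be tested through arrays with IWP-2 alone, so these counts are in part set by the filter. The share over all genes is therefore no like comparison. MYH6 changed by -2.10 ± 0.56 without and by 5.77 ± 0.56 with the inhibitor, a difference of -7.88 ± 0.79 (adjusted p = 1.31e-05). CKM differed by -7.66 ± 0.88, NKX2-5 by -5.64 ± 0.68 and NEBL by -4.73 ± 0.34. PPP1R14C, a phosphatase inhibitor subunit and the third most negative gene, differed by -6.61 ± 0.55. Glycolysis genes differed in 15 of 18, all lower without inhibitor, and 17 rose with IWP-2. GAPDH changed by -0.52 ± 0.13 without and 0.75 ± 0.13 with it (difference -1.27 ± 0.18, adjusted p = 0.000226). FGF and ERK genes differed in 7 downward and 2 upward of 15. DUSP6 changed by -2.69 ± 0.43 without and 1.32 ± 0.43 with IWP-2 (difference -4.00 ± 0.60, adjusted p = 0.000363). In WNT target genes 8 of 17 were lower without inhibitor, 4 under median scaling and 4 without the dim array, and DKK1 led with -4.98 ± 0.72 (adjusted p = 0.000252). Smooth muscle genes were lower in 5 and higher in 1 of 15 (3 and 2 under median scaling), with ACTA2 at -2.65 ± 0.45 (adjusted p = 0.000948) and TAGLN at -1.99 ± 0.42 (adjusted p = 0.00374).

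In 10 of 17 yolk sac, liver and endoderm genes the change was higher without IWP-2 (8 without the dim array), and FGB changed by 3.41 ± 0.26 without and 0.16 ± 0.26 with it (difference 3.26 ± 0.37, adjusted p = 4.6e-05). With IWP-2, 3 of the 17 rose and 3 fell, where 17.6% of all genes rose and 18.7% fell. AFP was among the rises, by 1.41 ± 0.30 (adjusted p = 0.00169 in limma). Of 16 HOX genes 5 were higher and 1 lower. Fibroblast matrix genes were higher in 7 of 25, with POSTN at 5.02 ± 0.45 (adjusted p = 6.98e-06) and DCN at 5.23 ± 0.95 (adjusted p = 0.00147). The most positive differences were those of PITX1 at 5.64 ± 0.88 (adjusted p = 0.000491) and PRPH, which encodes the intermediate filament peripherin, at 5.36 ± 0.80 (adjusted p = 0.000355). Proliferation genes fell in both arms, and in 16 of 28 the fall was smaller without IWP-2. Endothelial genes rose by a median of 1.05 with IWP-2, and the difference passed for 1 of 16 in each direction. SLC2A1 rose with IWP-2 too, and its difference of 0.47 ± 0.51 did not pass (adjusted p = 0.572).

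**Figure D5:**
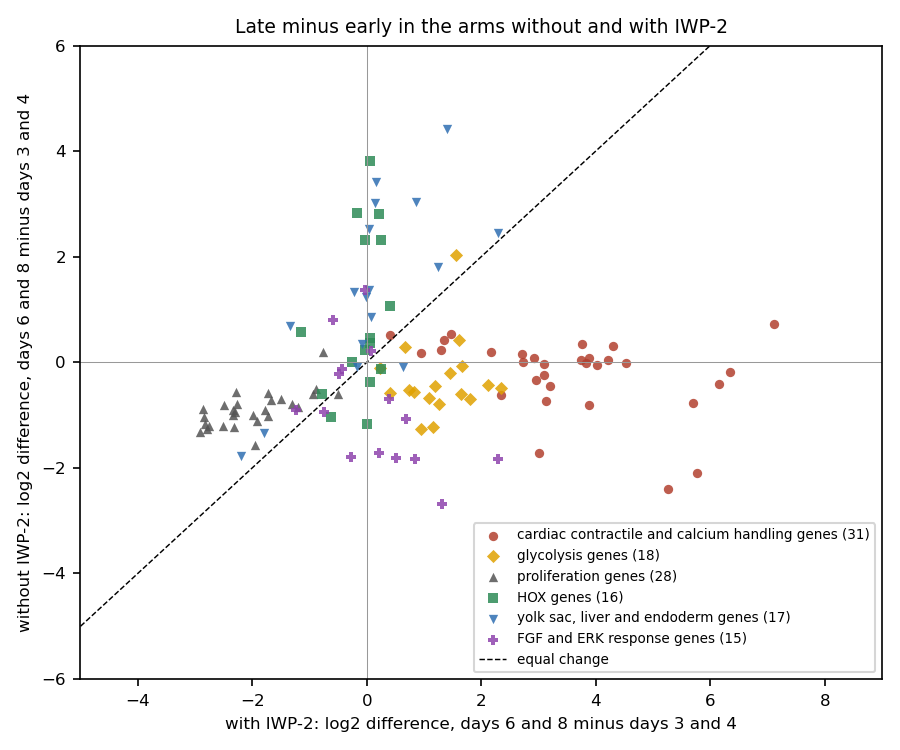
Log2 difference of days 6 and 8 minus days 3 and 4 with IWP-2 (x axis) and without it (y axis) for the tested genes of 6 lists, 1 point per gene. The dashed line marks equal change. Cardiac contractile genes lie along the x axis with a median of 3.20 with and -0.01 without inhibitor, and the HOX genes that rose lie along the y axis. Of the yolk sac, liver and endoderm genes, 3 rose with IWP-2, among them AFP by 1.41.

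HOX genes, which record position along the body axis, rose in 6 of 16 and fell in 2, with a median of 0.41. HOXC8 read 4.74, 5.56, 8.87 and 9.52 over the 4 days of time course 1 and 4.75, 8.57, 9.92 and 10.58 over those of time course 2. Day 4 of time course 2, at 8.57, came close to the lowest late array, at 8.87, and HOXC8 rose by 3.82 ± 0.48 (adjusted p = 2.98e-05). HOXC6 rose by 2.83 ± 0.44, where 2 other probes gave 0.27 and 0.39, HOXB8 by 2.80 ± 0.54 and HOXB7 by 2.32 ± 0.29. HOXC4 and HOXB4 rose, and the anterior genes HOXB1 and HOXA2 fell. Of the 39 HOX genes listed, 23 were not tested.

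Of 25 BMP and TGF-beta genes, 6 rose and 6 fell, where 13.2% of all genes rose and 12.4% fell. Under median scaling 7 rose and 3 fell, and without 1 array the falls numbered 3 to 5. Follistatin (FST), a binder of activins, read 7.11, 8.08, 10.21 and 10.40 on days 3, 4, 6 and 8 of time course 1 and 7.62, 8.87, 10.39 and 11.24 on those days of time course 2 and rose by 2.64 ± 0.56 (adjusted p = 0.00252), with no overlap. The TGF-beta co-receptor TGFBR3 rose by 2.62 ± 0.36, and the ligand TGFB2 was at least 2.71-fold higher (means 4.52 and 6.39, adjusted p = 0.00146). BMPER, a modulator of BMP, fell by 1.80 ± 0.27. The IGF pathway and imprinted loci gave 5 rises and 1 fall of 18, with 3 to 5 rises without 1 array. IGFBP5 read 7.37, 6.63, 9.69 and 11.91 over the 4 days of time course 1 and 6.49, 6.03, 9.81 and 10.64 over those of time course 2 and rose by 3.88 ± 0.51 (adjusted p = 4.83e-05). IGF2 read 6.01, 8.38, 9.79 and 10.14 on days 3, 4, 6 and 8 of time course 1 and 5.63, 6.62, 7.52 and 7.88 on those days of time course 2 and rose by 2.18 ± 0.50 (adjusted p = 0.00415). Both late arrays were above both early arrays within each time course, and IGF2 was lower in time course 2 on every day. H19, which lies beside IGF2, was at 12.07 to 13.69 and differed by 0.85 ± 0.58 (adjusted p = 0.312), and the imprinted NNAT fell by 1.56 ± 0.38. Of 13 NOTCH pathway genes 4 rose and 2 fell: the receptor NOTCH1 rose by 1.51 ± 0.19, the ligand JAG2 by 1.55 ± 0.27, and NOTCH4, the endothelial receptor, by 0.76 ± 0.17, while NOTCH3 fell by 0.70 ± 0.19, a call lost under median scaling (adjusted p = 0.128). The NOTCH list's median of -0.05 was 0.19 under median scaling.

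Markers of other lineages were looked at next. For scale, 13.2% of all genes rose and 12.4% fell, and the small counts of these lists were not tested against those shares. Of 12 trophoblast and amnion genes 3 rose (5 under median scaling): VTCN1 by 3.18 ± 0.63, GABRP by 2.27 ± 0.64 and CGB5 by 0.72 ± 0.18, a gonadotropin gene with near-identical copies. VTCN1 and GABRP reached 9.26 and 9.06 on day 6 of time course 2 against 5.72 and 5.32 in time course 1. Of 9 neural genes 1 rose and 4 fell, among them OTX2 (-2.33 ± 0.33), SOX3 (-1.73 ± 0.37) and TUBB3 (-0.64 ± 0.23), the last lost without any of 5 arrays. The neural falls came to 2 under median scaling, to 2 on the 8 arrays alone and to 2 or 3 without 1 array. STMN2, a neuronal tubulin regulator, rose by 2.25 ± 0.58 and was highest on day 8 (8.24 and 11.15), with its early and late arrays overlapping. FOXD3 (-0.04 ± 0.10), NEUROG2 (-0.20 ± 0.14), DCX (0.26 ± 0.33) and ELAVL3 (0.05 ± 0.14) did not pass. Of 5 skeletal muscle, cartilage and bone genes, SOX6 rose by 2.50 ± 0.21 (adjusted p = 5.86e-07), and SOX9 (-0.29 ± 0.32), COL2A1 (0.39 ± 0.21), RUNX2 (0.09 ± 0.23) and BGLAP (-0.04 ± 0.13) did not pass. Of 13 genes of antigen presentation HLA-E rose by 0.67 ± 0.14, and HLA-F (-0.97 ± 0.18), HLA-B (-0.88 ± 0.29) and HLA-G (-0.61 ± 0.16) fell, with paralogs close enough for probes to share. The HLA-B call was lost without any of 6 arrays, and under median scaling HLA-B (adjusted p = 0.125) and HLA-G (adjusted p = 0.0615) lost theirs, which left 1 fall. That list's median of -0.09 was 0.12 under median scaling. Of 20 stress and immediate early genes 4 rose (7 under median scaling) and 0 fell, ATF3 by 1.75 ± 0.35, JUN by 1.33 ± 0.30, HSPB1 by 1.09 ± 0.21 and HSPA1B by 0.42 ± 0.14, and the HSPA1B call was lost without any 1 of the 8 arrays. The part of stress in the other results was not tested.

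More genes passed between the early days than between the late days. Between days 3 and 4, 292 genes passed (2.15%), 178 higher (1.31%) and 114 lower (0.84%) on day 4. PLAT rose by 6.07 ± 0.96 (adjusted p = 0.00285), LUM by 5.71 ± 1.11 (adjusted p = 0.0106) and IGFBP3 by 5.31 ± 0.52 (adjusted p = 7.98e-05). LGI1, a secreted neuronal protein gene, fell by 3.51 ± 0.51 (adjusted p = 0.00137), the protocadherin PCDH19 fell by 3.41 ± 0.72 (adjusted p = 0.0165) and SAMD3 fell by 2.87 ± 0.37 (adjusted p = 0.000587). Of 19 streak genes 6 fell over this day. TBXT fell by 2.71 ± 0.34 and EOMES fell by 2.81 ± 0.44. The count was 51 without day 3 of time course 1, 134 without day 4 of time course 1 and 83 without day 4 of time course 2. Whether the late minus early change differed between the time courses was tested on the 8 arrays alone, and 0 of 13572 genes passed in limma, with 675 at an unadjusted p under 0.05. That fit had no term for day, so steps between the days of a stage widened its SEs. IGFBP3 differed between the courses by -0.53 ± 2.87, so a difference in such genes could be missed. The changes of the time courses correlated across genes with r = 0.819 and rho = 0.695, where genes are not independent replicates.

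For several named genes another detected probe missed the test. These were NEBL (-0.57), OTX2 (-0.73), LOXL1 (0.15), DKK1 (-0.33) and HLA-F (0.05), and 1 of the other probes of LDHA and of DNMT3B. Of 147 named genes with a late minus early call, 124 kept it without each array in turn and 23 lost it without at least 1. Those whose loss is not given above are PLOD3 (lost without any of 4 arrays), STMN2, DKK1 and PCDH19 (3 each), MYH6, GABRP and LOXL1 (2 each), and CKM, CDH3, NOTCH3 and HLA-G (1 each).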

How the data were processed

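Total RNA of 27 samples was measured on Illumina bead arrays. In the deposited scanner table each array has a signal intensity for every probe and beside it a detection p-value, per the file headers, and the submitters' processing notes name GenomeStudio with no version. The authors' processed intensity values, made by a method not given in the sources used here, were an alternative. One gene symbol was available for 30113 of 47323 probes, several for 8 and none for 17202. From the scanner intensities, neqc in limma 3.58.1 (R 4.3.3) computed background-corrected, quantile-normalized log2 values with an offset of 16. Kept were probes whose detection p-value was below 0.01 on 2 arrays or more, and each of the 13572 genes was represented by its brightest probe. The fit (lmFit, eBayes) used all 27 arrays, 1 mean for each combination of day and arm, and a block for time course, the replicate number in the labels. That number pairs the samples: deviations correlated in each of 78 pairs of groups, with r from 0.122 to 0.802. Adjustment was by Benjamini and Hochberg, at 0.05.

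Gene lists (34, with 663 genes, of which 537 were tested) and members were chosen with earlier results of these data known. A gene on several lists counts on each. Named genes were the 12 largest passing differences in each direction, up to 4 passing members of a list, the members that did not pass where they were 5 or fewer, a set of fixed genes, and the 3 largest each way in the other tests. In simulated data with 200 of 13572 genes changed, the late minus early test recovered 80.5% at a log2 change of 1 and 16% at 0.5. For the comparison with IWP-2 58% were recovered at 1 and 0% at 0.5. Alternatives covered the block, the arrays fitted, background correction, normalization, filters, probes, weights, thresholds and leaving out each array or time course. A slide block was not run, as no slide is given. Promoters were read from a RefSeq table of 27305 windows. A further motif, the CArG box, was looked for in the smooth muscle genes. It was in 2 of the 11 list windows, in 0 of the 4 called members with a window and in 1.29% of all windows.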

Additional observations from a re-analysis of the deposited data

Results flagged for a closer look

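The 4 early and the 4 late arrays of the 187 named genes were searched for 1 array far from the other 3. Groups in which no array detected the gene were not flagged. Among like arrays chance gives such a case in about 1 of 20 groups, so some arise by chance, and each group mixes 2 days. Cases were found in 9 genes, given with the ratio of the gap to the group's range. On the early days CDX2 was high on day 4 of time course 2 (10.42 against 9.88 to 9.96, ratio 0.844). VTCN1 (6.20 against 4.25 to 4.36, ratio 0.942) and RSPO2 (6.28 against 4.15 to 4.30, ratio 0.931) were high on the same array. RUNX2 was high on day 3 of time course 2 (5.31 against 4.50 to 4.57, ratio 0.912). ETV5 (5.94 against 7.17 to 7.40, ratio 0.838) and SPRY2 (9.57 against 10.25 to 10.36, ratio 0.870) were low on day 4 of time course 1. On the late days UPK3B (5.49 against 4.72 to 4.85, ratio 0.834), FRZB (13.16 against 11.78 to 11.86, ratio 0.947) and PRPH (12.52 against 11.00 to 11.19, ratio 0.876) were high on day 8 of time course 2. The late minus early change without inhibitor differed from that with IWP-2 in 2477 genes by the test of the difference.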

How the results depend on the processing

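Late minus early calls (3477) came to 2330 with no replicate block, 3772 on the 16 arrays without inhibitor, 2567 on the 8 arrays alone and 2339 with the days of a stage averaged. They came to 193 in time course 1 alone and 17 in time course 2 alone, both with fewer arrays, 1965 at an adjusted p under 0.01 and 1009 at 2-fold or more. The fits of 1 time course and of the 8 arrays alone used early and late means in place of day means. Steps between the days of a stage therefore widened their spread, besides the smaller number of arrays. Day 8 minus day 3 gave 3270 and day 6 minus day 4 gave 396, both on the same number of arrays, so the count depends on the days compared. Leaving out 1 array gave 2517 to 3162. The comparison with IWP-2 (2477) gave 1461 with no replicate block, 3842 under median scaling and 1807 to 2418 without 1 array of the arms without inhibitor. The alternative without the dim inhibitor array, 1976, was chosen after seeing the data. Day 4 minus day 3 (292) gave 172 with no replicate block, 480 on the 16 arrays without inhibitor and 51 to 292 without 1 array. Day 8 minus day 6 (21) gave 43 on the 16 arrays, 32 on the authors' processed values and 13 to 79 without 1 array. Where 1 day keeps 1 array, that array is assumed to vary like the other groups. Except where fewer arrays, the early and late means, the block or a stricter threshold made the difference by construction, the cause was not tested. Of 187 named genes, 20 kept their direction but lost the call on the 8 arrays alone: COL3A1 (adjusted p = 0.0625), LUM (0.0896), PLAT (0.126), FGG (0.0615), SERPINE3 (0.05002), EOMES (0.0717), BMPER (0.101), DKK1 (0.0983), GAPDH and MKI67 (0.0934 each), LDHA (0.0803), PLOD3 (0.0662), ALAS2 (0.0632), TNNI1 (0.0890), HLA-G (0.0553), STMN2 (0.186), TUBB3 (0.288), LGI1 (0.221), PCDH19 (0.196) and SAMD3 (0.169). Under median scaling MKI67, AXIN2, TNNI1, KLF1, TUBB3, NOTCH3, HLA-B and HLA-G lost theirs. No named gene turned its direction in a call under these alternatives. Signals near background limit the genes detected on few arrays, where differences are understated.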
